A study of Rattus norvegicus with 6 samples.

Results

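Cytosolic ribosomal protein genes were examined in rat dorsal root ganglia after nerve injury. These ganglia lie beside the spinal cord and hold the cell bodies of sensory neurons with their glia. Members were chosen by their rat symbols: Rpl or Rps followed by a number, Rplp0, Rplp1, Rplp2 and Rpsa, each listed in at least 3 of the 6 libraries. The rule found 74 genes, 45 of the large and 29 of the small ribosomal subunit, among 14346 genes listed in any library. All 74 were listed in all 6 libraries and passed the filter on low counts, as did 11091 genes in all. Rpl37, Rps4x, Rps9 and Rps27a, whose symbols also match, were not analysed here.

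RNA was sequenced from whole ganglia taken on day 7 after either operation, with 3 libraries per group. Sham rats had an operation without ligation, and pSNL rats had a partial ligation of the sciatic nerve, in which some of the nerve's axons are tied off and others are spared. The labels give the species Rattus norvegicus, the tissue, the operation and the day. They give no strain, sex or age, do not say which spinal levels were taken or whether ganglia were pooled, and do not say that each library came from a separate animal, so p-values measure only the spread between these libraries.

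Ribosomal proteins are the protein part of the cytosolic ribosome, which translates nuclear messages. The large subunit forms peptide bonds and the small subunit decodes the message. Most ribosomal protein mRNAs begin with a terminal oligopyrimidine (TOP) tract, a C followed by further C or T letters, through which the kinase mTORC1 adjusts their translation together. Their mRNAs are also known to be carried into axons of sensory neurons. RNA levels do not measure translation.

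The start sequences are shown because the TOP tract is the known shared feature of these mRNAs and was not used to choose the genes. RefSeq promoter entries of build GRCr8 matched 59 of the 74 members by gene ID. The tract searched was a C at the annotated transcript start followed by at least 4 letters that are each C or T, on the transcript's strand only. Each sequence runs 5′ to 3′ over 45 bases, 20 before the annotated start and 25 from it, and capitals mark the unbroken run of C and T letters at the start where the tract is present. The first 5 genes are those with the smallest p that have an entry, Rpl37a had the lowest fold change, Rplp0 belongs to the ribosomal stalk, and Rpl22 is among the members with the lowest level.
Rpl41: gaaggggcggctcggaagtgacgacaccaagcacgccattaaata
Rpl11: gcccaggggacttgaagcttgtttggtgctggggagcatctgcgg
Rpl35: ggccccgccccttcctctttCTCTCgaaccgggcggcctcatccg
Rpl18: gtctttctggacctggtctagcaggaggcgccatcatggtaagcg
Rps15: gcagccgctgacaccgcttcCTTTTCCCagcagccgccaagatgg
Rpl37a: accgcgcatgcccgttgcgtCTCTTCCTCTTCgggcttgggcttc
Rplp0: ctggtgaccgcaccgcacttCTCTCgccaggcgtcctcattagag
Rpl22: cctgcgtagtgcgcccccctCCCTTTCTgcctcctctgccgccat

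In GRCr8 these windows lie at the starts of their genes, at chr7:1563473-1563517 on the minus strand for Rpl41, chr5:153560778-153560822 on the minus strand for Rpl11, chr3:43165897-43165941 on the minus strand for Rpl35 and chr1:105325250-105325294 on the plus strand for Rpl18. Rps15 is at chr7:10068091-10068135 on the minus strand, Rpl37a at chr9:81748071-81748115 on the plus strand, Rplp0 at chr12:46718366-46718410 on the minus strand and Rpl22 at chr5:168117941-168117985 on the plus strand.

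A tract stood exactly at the annotated start in 23 of the 59 members with an entry, which is 39.0%. The share was 2.96% (267 of 9018) among tested genes with an entry and 3.11% (854 of 27457) among all genes of the table, counting a gene when any of its starts held the tract. It was found in 16 of 37 large subunit and 7 of 22 small subunit genes. The runs were 5 to 12 letters long, with a median of 8. Among 56 mitochondrial ribosomal protein genes with an entry, whose products form the separate ribosome inside mitochondria, 2 held it, and among 32 translation initiation factors 1 did. It was found in 0 of 15 elongation factors and other known TOP messages, and in 0 of 4 paralogs and fusions. The search at the annotated start thus also missed messages known to carry the tract. A start annotated a few bases away from the true start moves the tract out of this position, so its absence says only that these letters are not at the annotated start.

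The estimated counts per library lay between 4310643 and 4416121, and 13135 to 13343 genes were listed per library. Levels are given as CPM, the counts of a gene relative to the library total after TMM scaling, which makes libraries comparable for each gene, and as the authors' FPKM, which is also per transcript length and allows genes to be compared. The members were covered by 13 to 2866 counts per gene and library, with a median of 799, at which counting alone gives an error of 3.54%. The median spread between libraries of a group was 6.82% of the mean. Genes used as a check of the labels were higher in each pSNL than in each sham library: the injury-induced transcription factors Atf3 (16.6 ± 5.68 CPM in sham, 208 ± 101 in pSNL) and Sox11 (3.59 ± 0.70 and 15.6 ± 5.26), and the growth cone protein Gap43 (284 ± 26.6 and 562 ± 124; SD, n = 3 each). The adjusted p of edgeR's quasi-likelihood test was 0.0891 for Atf3, 0.024 for Sox11 and 0.0416 for Gap43. In DESeq2, a second test, it was 8.8e-09, 3.1e-05 and 2.3e-08.

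Libraries differed in tissue markers beyond the groups. All 14 neuron markers were detected in every library, with a summed level of 48928 to 61370 CPM in sham and 48471 to 52225 CPM in pSNL, as were all 11 Schwann cell markers. Of 10 skeletal muscle markers, 9 had a value, and their sum was 537 CPM in sham replicate 3 and 991 CPM in pSNL replicate 3 against 18.3 to 27.2 CPM in the other 4 libraries. The sum of 9 central glia markers was 1912 CPM in sham replicate 3 and 30.8 to 64.1 CPM in the other 5 libraries, in which Olig1 and Opalin were at or near 0. Results are therefore also given with both replicate 3 libraries left out, an alternative chosen after these levels were seen.

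In sham ganglia the ribosomal protein genes were among the most abundant messages per length. Their median FPKM was 310, against 13.5 over all tested genes, and 65 of the 74 ranked in the top 500. Levels were close to each other: 61 members lay between 200 and 600 FPKM. The highest were Rpl41, which encodes the smallest ribosomal protein, at 602 ± 55.8 FPKM, Rpl13a at 601 ± 33.8, the stalk gene Rplp1 at 594 ± 47.9, Rps29 at 552 ± 20.8 and the stalk gene Rplp0 at 526 ± 21.1 FPKM (SD, n = 3). The first 3 differed by less than the SD of any of them.

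The lowest was Rps4y2, a copy related to the Y-linked form of the eS4 protein, at 6.82 ± 0.63 FPKM in sham and 7.90 ± 4.03 in pSNL. The next were Rpl15 at 79.2 ± 0.72, Rpl36a at 91.6 ± 13.2, Rpl28 at 94.7 ± 5.81 and Rpl22 at 98.6 ± 12.7 FPKM in sham, of which the last 3 overlapped within their SD. The order of levels was nearly the same in both groups: Spearman's rho between mean sham and mean pSNL FPKM was 0.98 across the 74 genes, which share libraries and lengths and are not independent replicates.

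Between pSNL and sham the members shared a small difference in 1 direction, and no gene passed the test. edgeR called 0 of 74 higher and 0 lower, beside 0.442% of all tested genes called higher (49 of 11091) and 0.018% called lower. The fold change was positive for 71 of the 74 genes, or 95.9%, against 49.4% of all tested genes. The median log2 fold change was 0.15, a 1.11-fold higher level in pSNL, and it was -0.0024 over all tested genes. The distribution ran from 0.10 to 0.20 (quartiles), and 58 members lay between 0.05 and 0.25 on the log2 scale. The SE of a member's log2 fold change had a median of 0.093, so for most genes the difference was less than 2 SE.

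**Figure D1:**
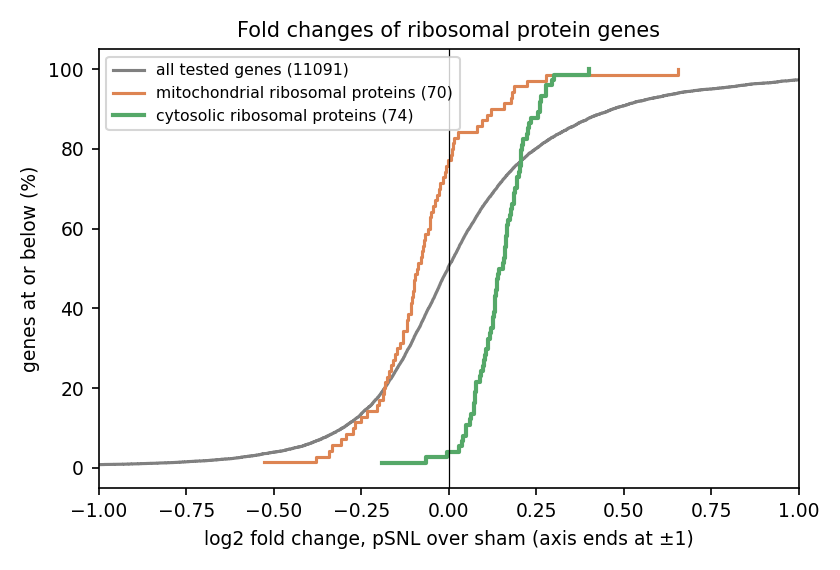
Share of genes (percent, vertical axis) with a log2 fold change of pSNL over sham at or below the value on the horizontal axis, for the 74 cytosolic ribosomal protein genes (green), 70 mitochondrial ribosomal protein genes (orange) and all 11091 tested genes (grey). The green curve climbs steeply to the right of 0, around its median of 0.15, while the orange curve lies mostly to the left, around -0.089.

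An unadjusted p under 0.05 was reached by 11 members, all with a higher level in pSNL, which is 14.9% of them against 9.41% of all tested genes. In 21 members, or 28.4%, every pSNL library was above every sham library, against 11.1% of all tested genes. In 0 members was every pSNL library below every sham library, against 10.4% of all tested genes. DESeq2 called 1 member, Rpl41 (adjusted p = 0.0151), where it called 2.35% of all genes with an adjusted p higher in pSNL. The members without overlap included Rpl11, Rpl13a, Rpl18, Rpl22, Rpl23a, Rpl24, Rpl31, Rpl35 and Rpl41 of the large subunit, and Rps3, Rps12, Rps14, Rps15, Rps18, Rps20, Rps25, Rps26, Rps29 and Rpsa of the small subunit.

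**Figure D2:**
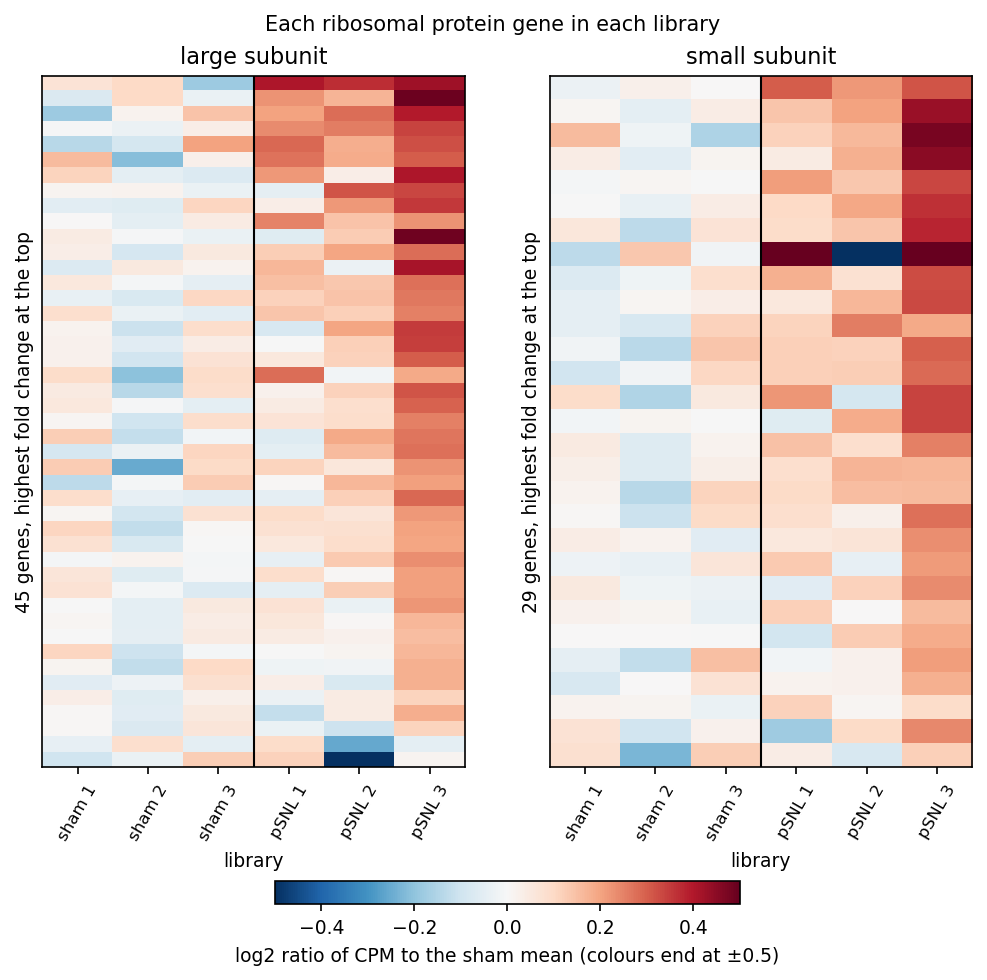
Log2 ratio of each member's CPM to its mean over the sham libraries (colour, ending at ±0.5), with genes as unlabelled rows, the highest fold change at the top, and the 6 libraries as columns, for the large (left) and small (right) subunit. Red spreads over both subunits in the pSNL columns and is deepest in pSNL replicate 3, the highest library for 66 of the 74 genes.

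Summed over the 74 genes, the level was 14758, 14131 and 14938 CPM in sham replicates 1 to 3 and 15269, 15607 and 17463 CPM in pSNL replicates 1 to 3. The groups did not overlap, and pSNL replicate 1 lay closest to the sham libraries. The means were 14609 ± 424 CPM in sham and 16113 ± 1182 CPM in pSNL, a ratio of 1.103. As a share of all counts, these genes took 1.463%, 1.401% and 1.512% in sham and 1.550%, 1.560% and 1.729% in pSNL.

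**Figure D3:**
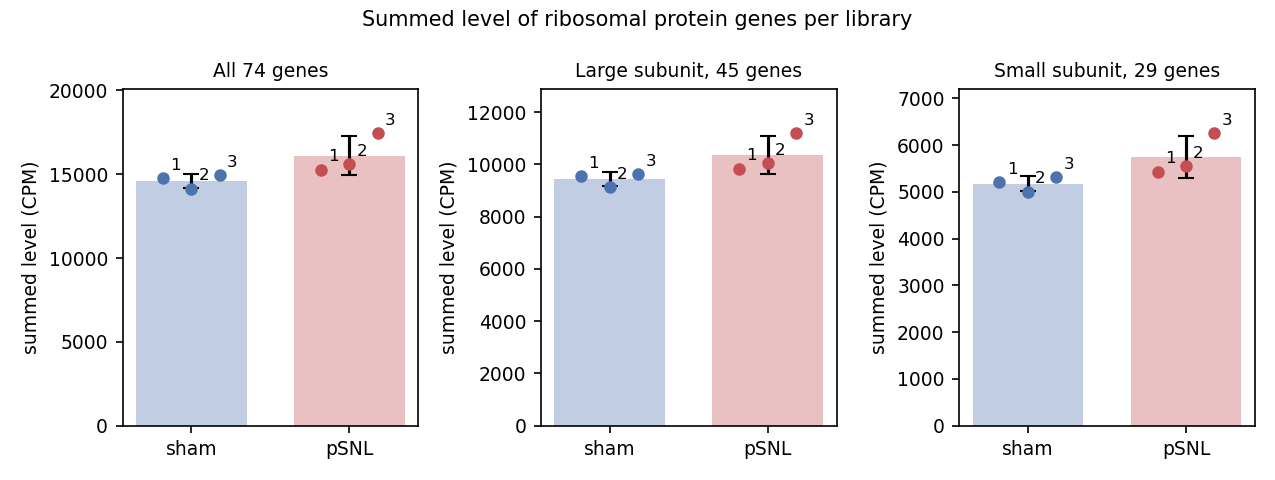
Summed level (CPM) of all 74 genes, the 45 large subunit genes and the 29 small subunit genes. Bars are group means, error bars the SD over 3 libraries, and points the libraries with their replicate number; in all 3 panels pSNL replicate 3 is the highest point and the other 2 pSNL libraries lie closer to sham.

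Both subunits had a median above 0; the difference between them was not tested. The large subunit genes had a median log2 fold change of 0.14, positive in 42 of 45. Of these genes 7 (15.6%) had an unadjusted p under 0.05 and 10 (22.2%) had no overlap. The small subunit genes had a median of 0.16, positive in 29 of 29. Here 4 (13.8%) had an unadjusted p under 0.05 and 11 (37.9%) had no overlap. All of these were higher in pSNL, against 9.41% and 11.1% of all tested genes. Without pSNL replicate 3 the medians were 0.067 for the large and 0.11 for the small subunit, and with both replicate 3 libraries left out 0.093 and 0.10. The summed levels were 9434 ± 269 and 10361 ± 735 CPM for the large and 5175 ± 158 and 5752 ± 447 CPM for the small subunit, in sham and pSNL (SD, n = 3 each).

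The size of the difference varied between the pSNL libraries. Relative to each gene's sham mean, the median over the 74 genes on the log2 scale was 0.085 in pSNL replicate 1, 0.119 in pSNL replicate 2 and 0.258 in pSNL replicate 3, against 0.014, -0.047 and 0.036 in sham replicates 1 to 3. The number of members above their sham mean was 56, 62 and 73 in the pSNL libraries and 46, 17 and 49 in the sham libraries. pSNL replicate 3 was the highest of the 6 libraries for 89.2% of the members, against 16.1% of all tested genes. Sham replicate 2 was the lowest for 37 of the 74, against 13.9% of all tested genes.

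Without pSNL replicate 3 the median log2 fold change was 0.070, positive in 65 of 74 genes, and 3 members had an unadjusted p under 0.05. With both replicate 3 libraries left out it was 0.10, positive in 67, with 7 at an unadjusted p under 0.05. Without sham replicate 2 it was 0.11, positive in 69. In each of these fits edgeR called 0 members. The share of all tested genes at an unadjusted p under 0.05 in these fits is not given here. The counts of 3 and 7 therefore do not show an excess over all tested genes. Of the 74 genes, 65 had a positive fold change whichever library was left out.

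Other markers also differed between libraries. The summed level of 14 macrophage markers, all detected in every library, was 209 to 279 CPM in sham and 353, 592 and 598 CPM in pSNL replicates 1 to 3, and 13 of the 14 had a positive fold change. edgeR called 0 of the 14. An unadjusted p under 0.05 was reached by 10, all higher in pSNL, or 71.4% against 9.41% of all tested genes. DESeq2 called 6, among them the lysozyme gene Lyz2 and the complement genes C1qa, C1qb and C1qc. Of the 14 neuron markers edgeR called 0 and DESeq2 called 4. At an unadjusted p under 0.05, 35.7% of them were lower in pSNL and 14.3% higher, against 6.07% and 9.41% of all tested genes. The 11 Schwann cell markers summed to 19243 to 28021 CPM in sham and 21537, 25654 and 33393 CPM in pSNL. The 12 fibroblast and vessel markers summed to 1884 to 3892 CPM in sham and 4300 to 7023 CPM in pSNL, and the 8 satellite glia markers to 7903 to 8416 and 6359 to 7761 CPM. edgeR called 0 in each of the Schwann cell, fibroblast and vessel, and satellite glia lists. An unadjusted p under 0.05 was reached by 4 Schwann cell and 5 fibroblast and vessel markers, all higher in pSNL (36.4% and 41.7%). Of the satellite glia markers 25% were higher and 12.5% lower at that p. Over all tested genes 9.41% were higher and 6.07% lower. DESeq2 called 2 in each of the 3 lists, and 334 of all 11072 genes with an adjusted p. The part of these cell types in the ribosomal protein result was not tested. In whole tissue, a different number of cells of a type and a different amount of RNA per cell cannot be told apart.

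Rpl41 (gene ID 124440) had the largest fold change and the smallest p of the members. It was at 278, 284 and 234 CPM in the sham libraries and 351, 343 and 356 CPM in the pSNL libraries. The groups did not overlap and the pSNL values were close together. The log2 fold change was 0.40 ± 0.09 (SE), 1.32-fold, with an adjusted p of 0.0861 in edgeR and 0.0151 to 0.2503 over the alternatives.

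Rpl11 (362631), whose protein joins Rpl5 and the 5S RNA in a particle that also binds the p53 regulator Mdm2, was at 148, 146 and 152 CPM in sham and 175, 178 and 188 CPM in pSNL. All pSNL values were above all sham values, with a log2 fold change of 0.28 ± 0.08 (SE; adjusted p = 0.136 in edgeR). Its partner Rpl5, named here for this role after its values were seen, was at 282, 244 and 260 CPM in sham and 262, 264 and 294 CPM in pSNL. Those groups overlapped, with a log2 fold change of 0.06 ± 0.09 (SE; adjusted p = 0.787 in edgeR).

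Rps20 (122772), a protein of the head of the small subunit, was at 132, 138 and 135 CPM in sham and 167, 157 and 168 CPM in pSNL. The groups did not overlap and its p was the smallest of the small subunit genes, with a log2 fold change of 0.28 ± 0.08 (SE; adjusted p = 0.138 in edgeR). Rps15 (29285), also a head protein, was at 182, 174 and 185 CPM in sham and 198, 207 and 243 CPM in pSNL, with the largest value in replicate 3. Its log2 fold change was 0.26 ± 0.095 (SE; adjusted p = 0.228 in edgeR).

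Rpl35 (296709), which lies near the exit of the peptide tunnel, was at 141, 158 and 145 CPM in sham and 173, 166 and 208 CPM in pSNL. The highest sham and the lowest pSNL library were close, and the log2 fold change was 0.30 ± 0.10 (SE; adjusted p = 0.208 in edgeR). Rpl18 (81766) was at 131, 150 and 163 CPM in sham and 170, 180 and 194 CPM in pSNL, with a log2 fold change of 0.29 ± 0.10 (SE; adjusted p = 0.209 in edgeR). Both genes had groups that did not overlap but neither passed the threshold.

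**Figure D4:**
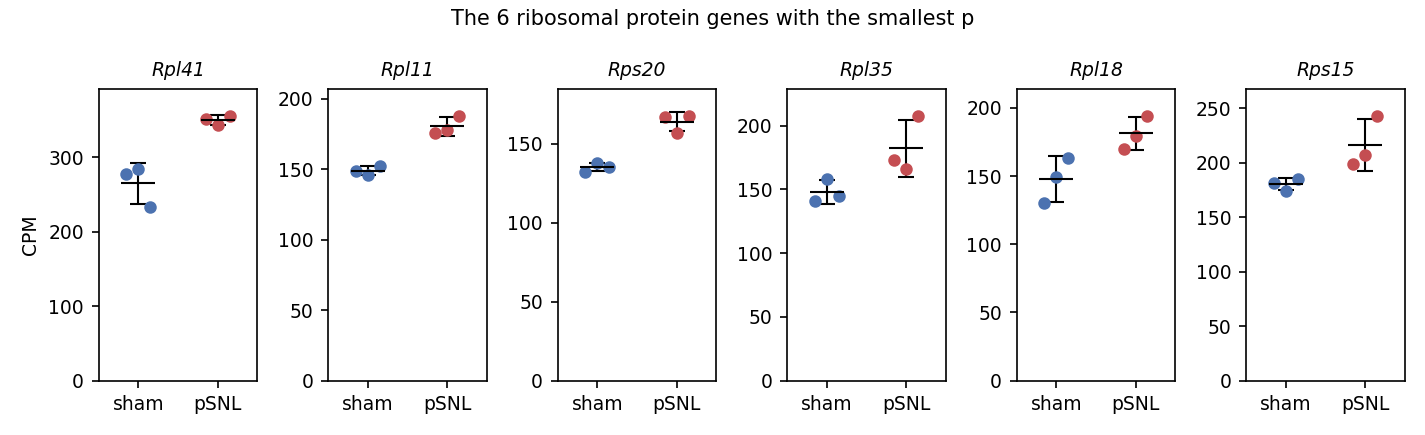
CPM in each library of the 6 members with the smallest p, from Rpl41 on the left to Rps15 on the right. Points are libraries, long lines the group means and error bars the SD over 3 libraries; in each panel all pSNL points lie above all sham points.

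The 3 stalk genes, whose products form the flexible arm that recruits elongation factors to the large subunit, had overlapping groups. Rplp0 was at 598, 565 and 542 CPM in sham and 550, 619 and 656 in pSNL. Rplp1 was at 276, 287 and 315 CPM in sham and 283, 327 and 354 in pSNL. Rplp2 was at 171, 162 and 173 CPM in sham and 168, 184 and 215 in pSNL. In each the first pSNL library lay within the sham range and the third was highest, and the log2 fold changes were 0.10 ± 0.09, 0.13 ± 0.10 and 0.16 ± 0.10 (SE; adjusted p = 0.641, 0.559 and 0.479 in edgeR). Rpsa, a small subunit protein also known as the laminin receptor, was at 399, 394 and 374 CPM in sham and 403, 406 and 457 CPM in pSNL, without overlap but with a log2 fold change of only 0.12 ± 0.08 (SE; adjusted p = 0.534 in edgeR).

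Among the members with the highest level per length, Rpl13a was at 410, 379 and 415 CPM in sham and 437, 460 and 486 in pSNL, with a log2 fold change of 0.20 ± 0.08 (SE; adjusted p = 0.279 in edgeR). Rps29, a small zinc-binding protein, was at 154, 160 and 163 CPM in sham and 165, 178 and 200 in pSNL. Its log2 fold change was 0.19 ± 0.09 (SE; adjusted p = 0.366 in edgeR). Neither group pair overlapped.

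Among those with the lowest level, Rpl22 was at 48.2, 37.3 and 44.0 CPM in sham and 52.1, 49.1 and 53.3 in pSNL, without overlap (log2 fold change 0.25 ± 0.12 SE; adjusted p = 0.351 in edgeR). Rpl36a was at 53.7, 55.6 and 68.1 CPM in sham and 72.2, 67.1 and 73.9 in pSNL, where the third sham library reached into the pSNL range (log2 fold change 0.27 ± 0.11 SE; adjusted p = 0.300 in edgeR). Rpl15 was at 157, 157 and 152 CPM in sham and 151, 193 and 196 in pSNL, so the first pSNL library was the lowest of all 6. Rpl28 was at 143, 146 and 157 CPM in sham and 152, 141 and 168 in pSNL, with a log2 fold change of 0.05 that was -0.024 without pSNL replicate 3.

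Negative fold changes were found in 3 members, all of the large subunit. Rpl3, which reaches towards the peptidyl transferase centre, was at 476, 450 and 494 CPM in sham and 463, 441 and 512 in pSNL, a log2 fold change of -0.0049 ± 0.087 (SE). Rpl38 was at 116, 127 and 116 CPM in sham and 127, 100 and 116 in pSNL, a log2 fold change of -0.06 ± 0.11 (SE). Both had overlapping groups, and leaving out pSNL replicate 2 gave a positive value in each.

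Rpl37a had the lowest fold change, and 2 entries carry its symbol. The entry with gene ID 363248 was at 57.8, 60.7 and 67.6 CPM in sham and 67.2, 33.2 and 62.7 in pSNL (log2 fold change -0.19 ± 0.25 SE; adjusted p = 0.763 in edgeR). A second entry that a transcript accession matched to the same symbol was at 74.3, 57.7 and 79.5 CPM in sham and 69.7, 102 and 88.1 in pSNL. The low value of the first entry in pSNL replicate 2 met the highest value of the second. Their sum was 132, 118 and 147 CPM in sham and 137, 135 and 151 in pSNL, a ratio of 1.06 with overlapping groups.

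Rps4y2 was at 5.72, 6.87 and 6.19 CPM in sham and 8.83, 2.997 and 9.83 CPM in pSNL. Its log2 fold change of 0.21 had the largest SE of the members, 0.39, and turned to -0.084 without pSNL replicate 3.

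Several entries named as copies of ribosomal protein genes were listed at levels like those of members. Rps4x-ps9 was at 288 ± 11.1 CPM in sham and 316 ± 26.3 in pSNL, and Rps27a-ps1 at 227 ± 11.0 and 240 ± 18.8 CPM. Rpl37l1 was at 114 ± 13.8 and 121 ± 12.8 CPM, Rpl36al1 at 64.2 ± 7.82 and 67.2 ± 5.57, and Rpl17-ps16 at 25.5 ± 5.67 and 27.5 ± 10.4 (SD, n = 3 each). Each had a higher mean in pSNL by less than the sum of its SDs. Reads of near-identical copies may be split between entries by the estimate, and 11 of the 74 members had counts that were not whole, so single members are less certain than the sum. With the copies added, the summed ratio was 1.102.

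The members were 318 to 1958 bases long. The 23 under 500 bases had a median log2 fold change of 0.16 and the other 51 of 0.13. Non-member genes under 500 bases (97 tested) had a median of -0.0085, with medians of -0.011, -0.130 and 0.106 in pSNL replicates 1 to 3. The 4531 non-members no longer than the longest member had a median of -0.023. By start sequence, members with the TOP tract at the start had a median of 0.14 (22 of 23 positive) and those with an entry but without it 0.15 (34 of 36 positive). Of the 36, 29 held a tract elsewhere in the 45 bases (median 0.14, 28 positive). Part of that window lies before the annotated start. The share of all tested genes with a tract anywhere in the window is not given here, so the 29 do not show an excess. The split follows the annotated start, and whether it separates TOP from other messages was not tested.

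The other genes of translation gave 0 calls in edgeR and 0 in DESeq2 in each list. Among paralogs and fusions, 5 were tested and all 5 lay above 0 (median log2 fold change 0.10). Fau, which encodes a small subunit protein fused to a ubiquitin-like part, was at 260 ± 4.78 and 280 ± 30.8 CPM in sham and pSNL. Rack1, a scaffold on the small subunit, was at 240 ± 0.55 and 258 ± 19.9 CPM. In both genes the third pSNL library was the highest, as in most members. Rps27l was at 15.5 ± 3.11 and 17.2 ± 2.95 CPM, and Rpl22l1, the paralog of Rpl22, at 47.2 ± 1.22 and 48.9 ± 4.17 CPM (SD, n = 3 each).

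Elongation factors and other known TOP messages were positive in 13 of 17, with a median of 0.064. Eef1a1, which delivers aminoacyl-tRNA to the ribosome, was at 2455 ± 120 CPM in sham and 2857 ± 287 in pSNL (adjusted p = 0.328 in edgeR). The intermediate filament gene Vim was at 1342 ± 258 and 1846 ± 294 CPM (adjusted p = 0.236 in edgeR), and Pabpc1, which binds poly(A) tails, at 232 ± 3.39 and 281 ± 54.5 CPM (adjusted p = 0.360 in edgeR). Pabpc1 and Eef1a1 were high in pSNL replicates 2 and 3 only.

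The lists of genes that build or regulate ribosomes had medians nearer to that of all tested genes. Initiation factors were positive in 15 of 35 (median -0.024), ribosome biogenesis factors in 20 of 42 (-0.012), mTORC1 and TOP control genes in 8 of 22 (-0.032), and signal recognition and translocon genes in 6 of 15 (-0.017). Genes of the integrated stress response, its kinases included, were positive in 8 of 13 (0.054). Single genes had small p without passing the threshold: Tcof1, a factor of rRNA synthesis, was at 33.2 ± 2.53 and 45.3 ± 5.14 CPM (adjusted p = 0.140 in edgeR), the kinase Eif2ak3 (PERK) at 39.9 ± 1.88 and 52.3 ± 4.17 CPM (adjusted p = 0.133 in edgeR), and Rraga, a GTPase that recruits mTORC1 to lysosomes, at 157 ± 10.2 and 131 ± 4.44 CPM (adjusted p = 0.205 in edgeR).

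**Figure D5:**
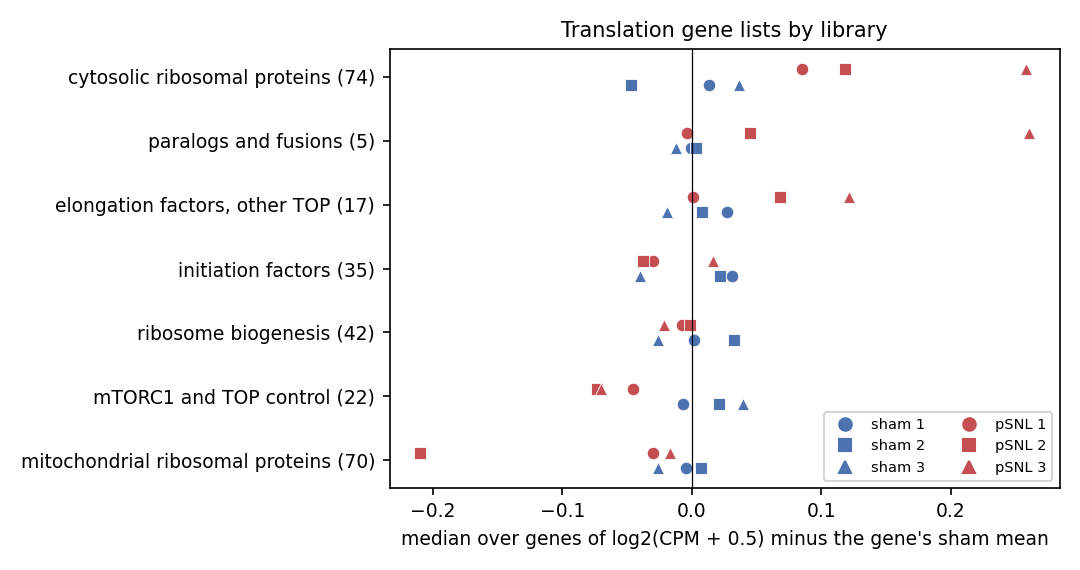
Median over the genes of each list (number tested in brackets) of log2(CPM + 0.5) minus the gene's sham mean, with 1 marker per library. The cytosolic ribosomal protein genes have all 3 pSNL markers to the right of the sham markers, with replicate 3 at 0.258; the mitochondrial ribosomal protein genes have a pSNL marker at -0.210.

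Mitochondrial ribosomal proteins, encoded in the nucleus and used by the separate mitochondrial ribosome, mostly had negative fold changes. Of 70 tested, 54 fold changes were negative and 16 positive; the median log2 value was -0.089, and edgeR called 0. An unadjusted p under 0.05 was reached by 4, all lower in pSNL, which is 5.71% against 6.07% of all tested genes. Every pSNL library was below every sham library in 11, or 15.7% against 10.4% of all tested genes, and above in 2, or 2.86% against 11.1%. Mrpl3 was at 44.0 ± 6.12 CPM in sham and 33.8 ± 3.71 in pSNL (adjusted p = 0.237 in edgeR), and Mrpl55 at 33.5 ± 2.64 and 27.0 ± 0.36 CPM (adjusted p = 0.273 in edgeR; SD, n = 3 each). Their library medians in pSNL were -0.030, -0.210 and -0.017, so replicate 2 was the lowest. The difference between cytosolic and mitochondrial genes was not tested.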

How the data were processed

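The deposited files hold expected counts, FPKM and a length per gene, 1 file per library, per the file headers. Bowtie2 and CASAVA 1.4 are named in the submitters' processing notes; quantifier, build, annotation and strand setting were not given in the sources used. The authors' expected counts were whole for 89.1% to 89.5% of listed genes; genes missing from a file were set to 0. FPKM, computed by the authors, was used for levels between genes. Of 14346 gene IDs, 14227 were matched to RefSeq GRCr8 symbols by ID and 16 by transcript, while 103 stayed as IDs.

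Counts were rounded and tested with edgeR 4.0.16 (R 4.3.3, filterByExpr, TMM, robust quasi-likelihood F test, Benjamini-Hochberg over 11091 genes, threshold 0.05). The fit was also run on simulated data, in which the changed genes had larger folds than the median of the members. That run does not show whether differences as small as those of the members would be called. Alternatives were DESeq2 1.42.0, library totals, no filter, a replicate block, and leaving out libraries. Named genes are members past the threshold, the 6 smallest p, the 4 highest and 4 lowest fold changes, the 5 highest and 5 lowest FPKM, Rpsa and the stalk genes, tested paralogs and up to 3 genes per other list; some genes the rule names are not reported here. Members and lists were chosen with earlier results of these data known.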

Additional observations from a re-analysis of the deposited data

How the results depend on the processing

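Members called higher were 0 in edgeR under each alternative and 1 (Rpl41) in DESeq2; members called lower were 0 throughout. All tested genes called, 51 as reported, were 89 without the filter on low counts, 334 in DESeq2 and 102 with both replicate 3 libraries left out; leaving out each library gave 5 (without sham replicate 2) to 217 (without pSNL replicate 1). Sox11 and Gap43 lost their calls without any sham library, without pSNL replicate 2 and without both replicate 3 libraries, and Gap43 also without pSNL replicate 3, at log2 fold changes of 1.91 to 2.28 and 0.82 to 1.06. The median log2 fold change of the members was 0.14 to 0.15 under the other scalings, filters and tools, and 0.070 to 0.190 when a library was left out, the lowest without pSNL replicate 3. Sums of counts and of FPKM gave ratios of 1.103 and 1.112. Leave-out ranges of named members whose sign turned were -0.366 to 0.060 (Rpl37a), -0.143 to 0.017 (Rpl38), -0.071 to 0.037 (Rpl3), -0.084 to 0.570 (Rps4y2), -0.024 to 0.103 (Rpl28) and, for the paralog Rpl22l1, -0.015 to 0.091. With both replicate 3 libraries left out, Rps4y2 (-0.087) and Rps27l (-0.084) turned as well. The cause of these turns was not tested. The labels do not say what equal replicate numbers share, and both replicate 3 libraries had raised skeletal muscle markers. Deviations of same-numbered libraries correlated at 0.032, 0.011 and 0.123, the last being the highest of all pairs. Sham replicate 2 correlated better with pSNL replicate 1 (0.104) than with pSNL replicate 2. The replicate block moved the calls over all genes from 51 to 111 and called 0 members, with a median of 0.141. Depth limits few members: only Rps4y2 had under 50 counts in a library.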
